A study of Mus musculus with 34 samples.

Results

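The genes described here are 42 centrosomal genes of 3 families, namely 29 Cep genes, which encode centrosomal proteins, 8 Haus genes, which encode the augmin complex, and 5 Tubgcp genes, which encode the gamma-tubulin ring complex. They were taken by a rule on names, as every gene in the count table whose GENCODE M21 symbol is Cep, Haus or Tubgcp followed by digits and optional letters. The rule was set with earlier results of these data known. Cep63, Cep83, Cep89, Cep152, Cep164 and Cep290 were left out. The 42 genes, all protein-coding, came from 21647 genes in the table, and all 42 passed the filter on low counts in every comparison. Cep112it and Cep83os, whose symbols also follow the rule, were not used here.

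RNA was sequenced in bulk in 34 samples of cultured mouse ependymal cells, which form the lining of the ventricles and carry tufts of motile cilia. The knockout groups lacked Rfx1 (Rfx1-/-, 4 samples), Rfx2 (Rfx2-/-, 6 samples) or Rfx3 (Rfx3-/-, 6 samples), and each line had a group of wild-type siblings, with 4 samples in the Rfx1 line, 8 in the Rfx2 line and 6 in the Rfx3 line. All samples came from embryos at stage E18.5, with C57BL/6 given as the strain, although the term OF1 in every sample title has no explanation in the labels. Walls of the lateral ventricles were dissected, and the dissociated cells were grown until confluent and then kept without serum for 4 days before RNA was purified. How the alleles were made is not stated in the labels. Nor do they say that replicates are separate cultures or embryos, so a p-value measures only the spread between these samples.

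A centrosome holds centrioles within a cloud of pericentriolar material, where the gamma-tubulin ring complex starts new microtubules and augmin places further rings on existing microtubules. An ependymal cell multiplies its centrioles and turns them into the basal bodies of its many motile cilia. Many Cep proteins act in that process, in building, capping and elongating centrioles, at the appendages of the mother centriole, in the satellite granules around it, or in the cilium that grows from it. RFX factors are winged-helix proteins that bind the X-box, a paired motif found in the promoters of many ciliary genes.

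Because RFX factors are known to act at this motif, the promoters of the members were searched for it. RefSeq (GRCm38.p6) gave a window of 300 bases around the start for 34 of the 42 genes. Cep76, Cep120, Cep192, Cep350 and Haus1 were among those without one. The paired motif was spelled GTNNCC, then 1 to 3 free bases, then GGNNAC, which reads the same on both strands. In the 250 bases before the start it was found in 3 of the 34 members (8.82%), against 3.35% of 27025 genes. The single half-site GTTGCC, read on either strand, was found there in 6 members (17.6%), against 11.8% of genes, and it overlaps the paired motif in some promoters. The 3 members with the paired motif, Cep41, Cep44 and Cep112, were among those called lower in the Rfx2 line. The same call was made for 15 of the 34 members with a window. Cep44 and Cep112 were not called in the Rfx3 line. Whether the calls went with the motif was not tested. The 3 promoters are shown with the motif in capitals. The Cep41 promoter on the minus strand, chr6:30693750-30693999 of GRCm38.p6, holds it 131 to 117 bases before the start, and the whole stretch of 250 bases lies outside any M21 exon.
Cep41: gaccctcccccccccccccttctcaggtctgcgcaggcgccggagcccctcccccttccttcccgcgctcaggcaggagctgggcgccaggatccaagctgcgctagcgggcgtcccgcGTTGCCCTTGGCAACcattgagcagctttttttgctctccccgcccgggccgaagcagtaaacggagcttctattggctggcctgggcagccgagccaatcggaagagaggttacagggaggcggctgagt
The Cep44 motif, within chr8:56550661-56550690 on the minus strand, lies 116 to 103 bases before the RefSeq start and inside the exons of 3 M21 transcripts of Cep44. The Cep112 motif, within chr11:108425174-108425203 on the plus strand, lies 84 to 71 bases before the RefSeq start and overlaps an exon of 1 M21 transcript of Cep112. For these, 30 bases are printed.
Cep44: ttggtacgGTAGCCTTGGGAACctttcagt
Cep112: cccggagcGTCGCCATGGCAACagagttga
Cep128, the member with the largest decrease in both lines, had no paired motif in its window. It held a half-site 26 bases after the start, within chr12:91384367-91384396 on the minus strand, shown here after its values were seen.
Cep128: cggctagttcaaGTTGCCatagctgcaagt
Counting the 50 bases after the start as well, 4 of 34 members (11.8%) held the paired motif, adding Cep19, against 4% of genes, and 9 (26.5%) held the half-site, against 14.1%. These matches are letters in a window and not measured binding sites.

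Libraries held 18152011 to 53410806 counts, and every member was counted in every group. The targeted transcripts were lower in their own lines. Rfx1 had 19.9 to 30.2 CPM (read counts scaled to library size with TMM factors over all 34 libraries) in Rfx1 knockouts, against 52.8 to 77.4 in their wild types, with an adjusted p of 0.0687 that missed the threshold of 0.05 over all genes. Rfx2 had 43.3 to 55.3 CPM in Rfx2 knockouts, against 83.4 to 125.8 in wild types (log2 difference -1.13, SE 0.10, adjusted p = 1.34e-05). Rfx3 had 25.2 to 51.8 CPM in Rfx3 knockouts, against 156.5 to 206.2 in wild types (log2 difference -2.14, SE 0.15, adjusted p = 4.16e-05). In Rfx3 knockouts Rfx1 and Rfx2 were called lower as well, with log2 differences of -0.45 and -0.56.

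Markers of ependymal and multiciliated cells, 14 genes such as Foxj1, Mcidas and Ccno, had counts in every group and were lower in knockouts of 2 lines. They summed to 985.4 to 1311 CPM in Rfx2 knockouts and 1385 to 3035 CPM in their wild types, and 13 of the 13 tested were called lower. In Rfx3 knockouts they summed to 902.9 to 2643 CPM, against 2879 to 3475 CPM in wild types, and 8 of 14 were called lower. In Rfx1 knockouts the sum was 2101 to 3683 CPM, against 2650 to 3447 CPM in wild types, with 0 of 14 called. In bulk RNA, fewer ependymal cells and less RNA per cell cannot be told apart. The part of these marker changes in the results on centrosomal genes was not tested. Foxj1, the master regulator of motile cilia, was called lower in Rfx2 knockouts (log2 difference -0.62) and not in Rfx3 knockouts (-0.53, adjusted p = 0.0706), and the proliferation marker Mki67 was called in no line. In the Rfx2 line the other lists gave 0 of 18 mitotic genes called, 1 lower and 1 higher of 10 genes of the oligodendrocyte lineage, 1 lower and 3 higher of 8 astrocyte markers, 0 of 9 neuronal markers, 0 of 10 microglial markers, 1 lower of 4 choroid plexus markers and 2 higher of 6 mesenchymal and vessel markers. In the Rfx3 line the same lists gave 2 higher of 18, 2 higher of 10, 2 higher of 8, 1 lower and 2 higher of 11, 0 of 10, 3 lower of 4 and 1 higher of 6. None of these genes was called in the Rfx1 line. Over all genes tested, 18.4% were called lower and 13.9% higher in the Rfx2 line, and 12.9% and 10.6% in the Rfx3 line. The vessel marker Cldn5 had no count in 4 of the 6 groups.

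One Rfx3 knockout library, replicate 3, stood apart from the rest, and the members' results in the Rfx3 line are also given without it where a call changed and for the genes it moved most. Its log2 CPM relative to the other 5 knockouts fell with gene length, by 1.27 for every 10-fold increase in exonic length over all genes, whereas the same slope lay between -0.15 and 0.41 in the other 33 libraries. Centrosomal genes are long, with a median exonic length of 5980 bases against 3503 for all annotated genes in the table, and their range was 1438 to 18049 bases. Tubgcp4, with 8395 exonic bases, had 11.6 CPM in that library, against 30.6 to 35.01 CPM in the other 5 knockouts, whereas Haus7 and Haus4, with 1438 and 2378 bases, had 24.7 and 24.4 CPM, against 14.4 to 18.8 and 12.2 to 17.95 CPM. Exonic length here is the union of all annotated exons, so it exceeds the length of the transcript in use for some genes.

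**Figure D1:**
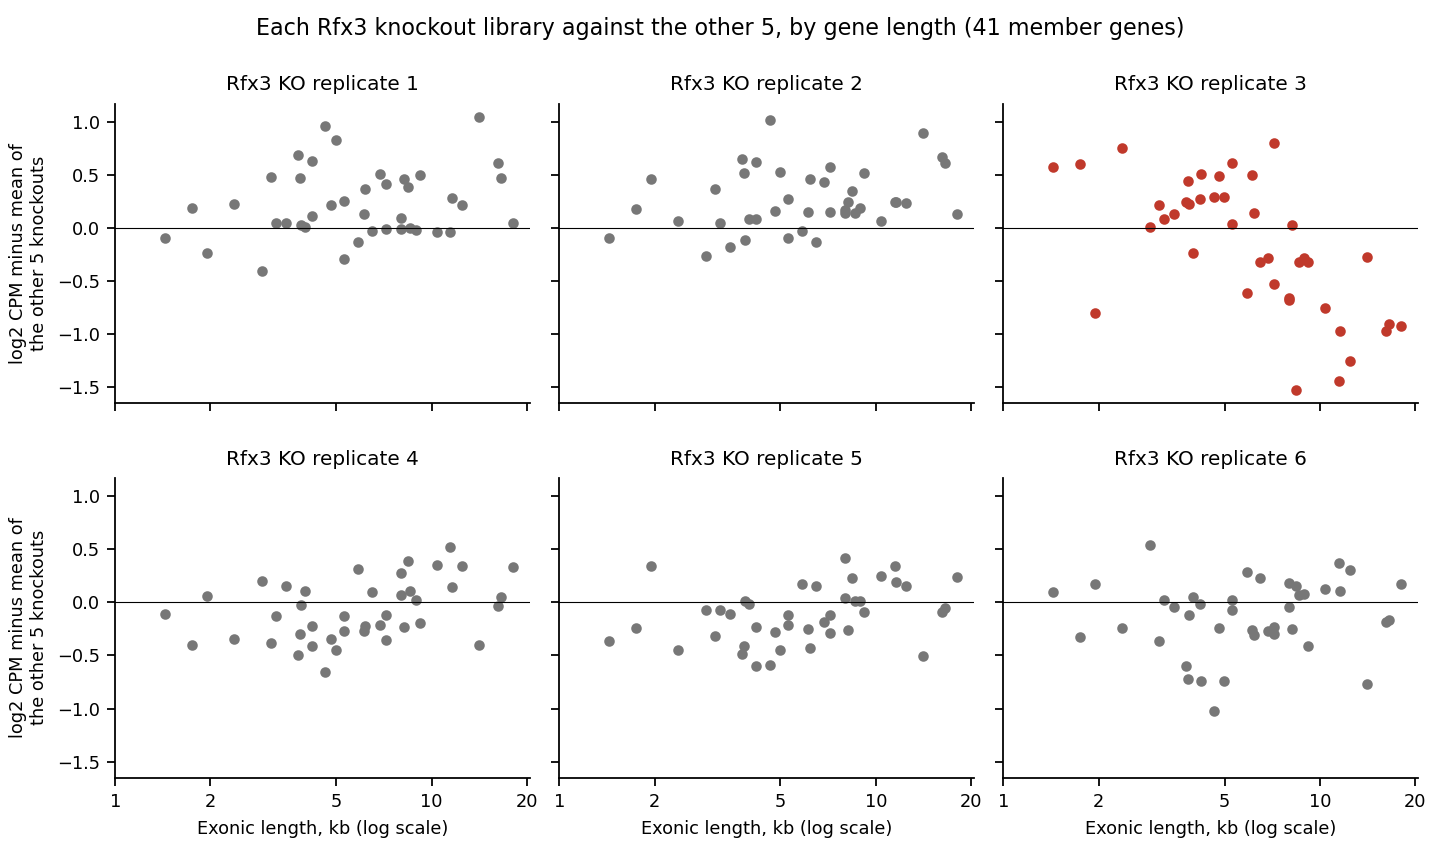
Log2 CPM of 41 centrosomal genes in each Rfx3 knockout library minus the mean of the other 5 knockouts, against exonic length in kb on a log scale, with a point for each gene. In replicate 3 the 12 longest genes lie below zero, with Tubgcp4 at -1.52 and Tubgcp6 at -1.44 the lowest of all, and the other 5 libraries show no such decline.

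At baseline the members differed widely in level. Per kilobase of exon, Cep19 was highest in each group of wild types, with 32.7, 28.5 and 33.8 CPM per kb in the Rfx1, Rfx2 and Rfx3 lines, and Cep295nl was lowest, with 0.47, 0.58 and 0.37 CPM per kb. Haus2 and Cep126 were also among the highest, at 17.02 to 17.7 and 13.6 to 20.8 CPM per kb, and Cep72 and Cep85l stood next to Cep295nl at 0.97 to 1.45. The median over the members was 6.00, 6.23 and 6.54 CPM per kb in these groups, against 6.14, 6.23 and 6.22 over 14826 genes. The 3 sets of wild types differed in 20 of the 42 members by an F test, against 57.7% of all genes tested. Tubgcp5 differed most clearly, at log2 -0.56 in Rfx1 wild types and -0.20 in Rfx3 wild types relative to Rfx2 wild types (adjusted p = 1.68e-08). Line, culture and any batch cannot be told apart in that comparison, and each knockout was therefore compared with its own siblings.

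In Rfx2 knockouts 18 members were called lower and 4 higher, in Rfx3 knockouts 12 were called lower and 0 higher, and in Rfx1 knockouts 0 were called either way. Across all genes tested, 18.4% were called lower and 13.9% higher in the Rfx2 line, 12.9% lower and 10.6% higher in the Rfx3 line, and 0.00723% lower and 0% higher in the Rfx1 line. The members called lower thus made up 42.9% and 28.6% of the set in the Rfx2 and Rfx3 lines, and the members called higher 9.52% and 0%. The median log2 difference over the members was -0.13 in the Rfx2 line and -0.20 in the Rfx3 line, against 0.013 and 0.024 over all genes tested. In the Rfx1 line it was 0.0059, against 0.0028. Cep128 was decreased most in both lines, to 0.40 times the wild-type level in Rfx2 knockouts and 0.46 times in Rfx3 knockouts. Every knockout lay below every wild type for 4 members in the Rfx2 line and 8 in the Rfx3 line, against 6.69% and 9.39% of all genes, and above for 2 members and 0, against 4.05% and 6.09%. In the Rfx1 line both counts were 0, against 0.709% and 0.766%. Decreases of at least 1.5-fold were called for 6 members in the Rfx2 line and 7 in the Rfx3 line, against 6.91% and 7.16% of all genes. Without Rfx3 knockout replicate 3, 16 members were called lower and 0 higher, against 19.7% and 18.7% of all genes, and the 12 calls of the full set were among the 16.

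**Figure D2:**
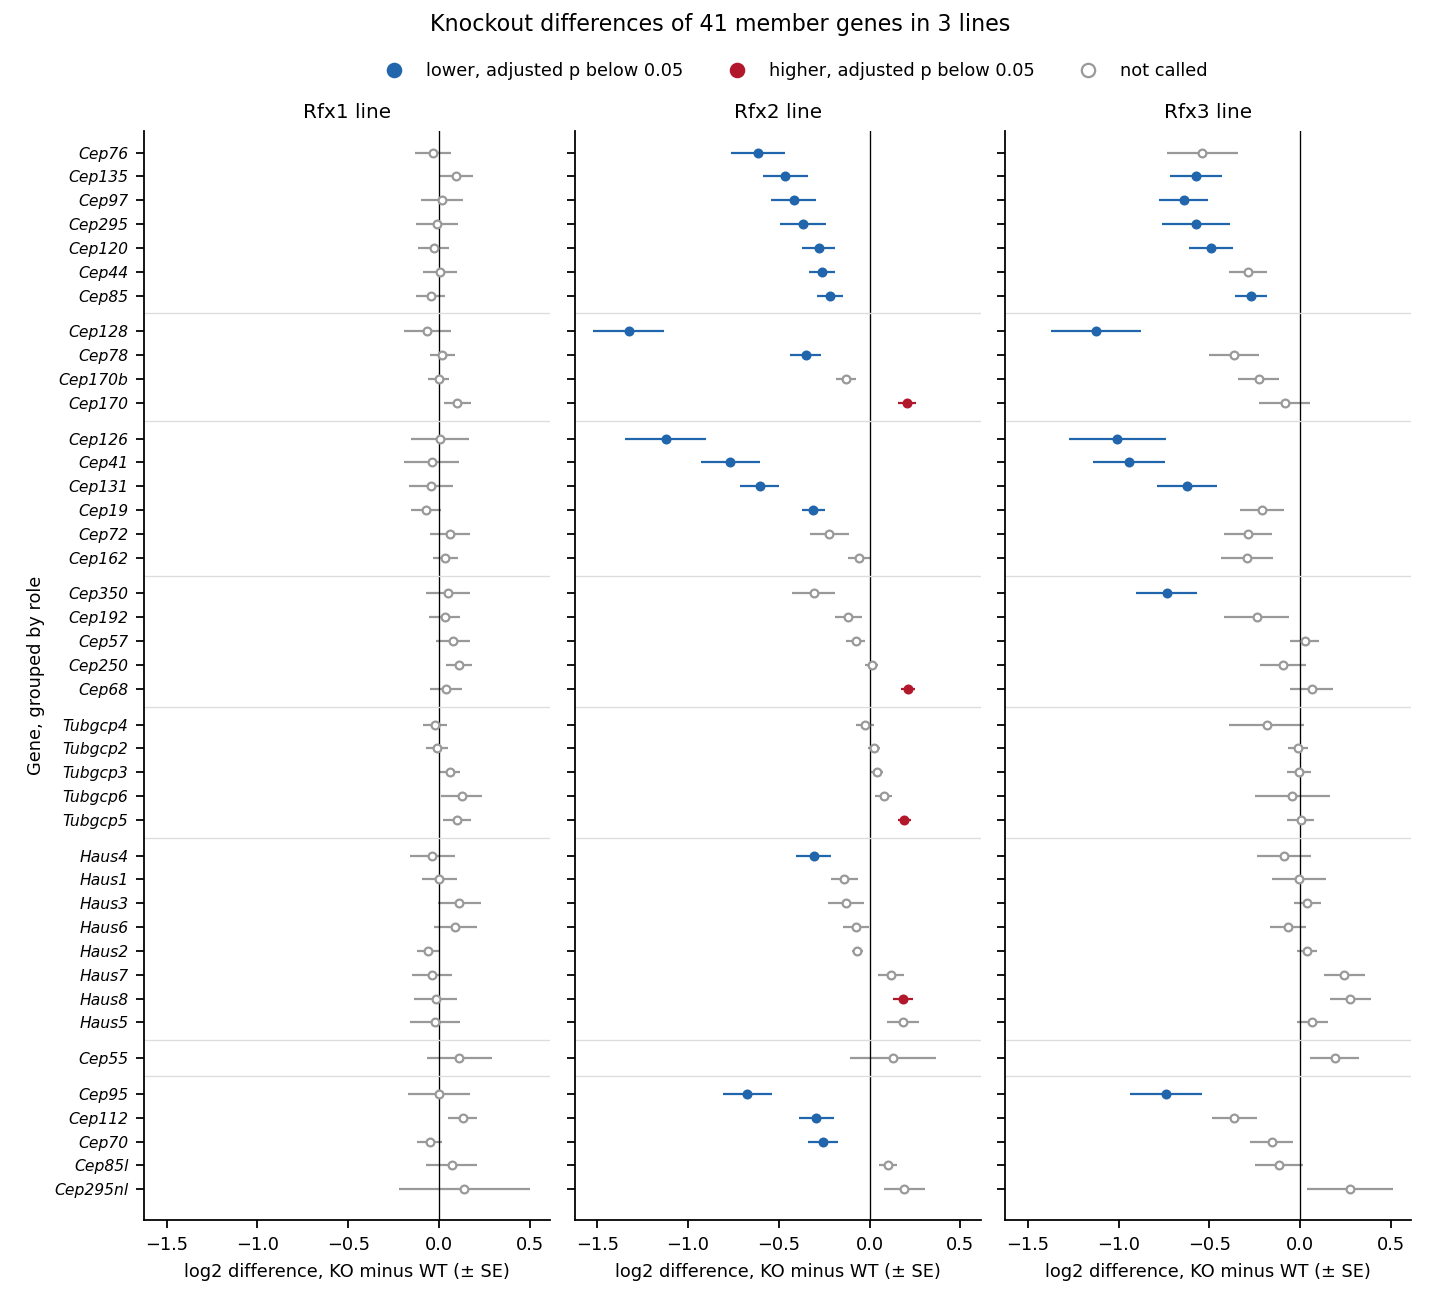
Log2 difference of knockout minus wild type with its standard error for each of 41 genes in the Rfx1, Rfx2 and Rfx3 lines, with genes grouped by role. Filled blue points are called lower, filled red points higher, and open grey points are not called. In the Rfx2 line all 7 genes of centriole assembly are blue, against 0 of 5 gamma-tubulin ring genes and 1 of 8 augmin genes. Over all genes tested, 18.4% were called lower in that line.

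Of 7 genes of centriole assembly and length, 7 were called lower in the Rfx2 line and 5 in the Rfx3 line, against 18.4% and 12.9% of all genes. Cep76, which restrains the reduplication of centrioles, had 21.2 to 25.4 CPM (median 22.9) in Rfx2 knockouts, against 23.98 to 51.6 CPM (median 33.6) in wild types (log2 difference -0.61, SE 0.15, adjusted p = 0.00614). In Rfx3 knockouts it had 25.5 to 53.8 CPM (median 34.4), against 43.1 to 61.5 CPM (median 54.5) in wild types, and missed the threshold (log2 difference -0.54, SE 0.20, adjusted p = 0.0631). Cep76 was called lower in that line in 7 of 20 alternative settings, among them DESeq2 and limma-voom (adjusted p = 0.0323 and 0.0364). Rfx3 knockouts 3 to 6 lay under every wild type and knockouts 1 and 2 within their range, while in the Rfx2 line 1 of 8 wild types reached into the range of the knockouts. Cep135, a component of the cartwheel on which centrioles are built, had 28.2 to 31.3 CPM (median 29.2) in Rfx2 knockouts, against 27.4 to 55.9 CPM (median 39.1) in wild types (log2 difference -0.46, SE 0.12, adjusted p = 0.0103). In Rfx3 knockouts it had 21.7 to 41.1 CPM (median 27.6), against 39.5 to 49.7 CPM (median 43.99) in wild types (log2 difference -0.57, SE 0.14, adjusted p = 0.0133). Apart from Rfx2 wild-type replicate 1, which lay below every knockout of its line, and Rfx3 knockout replicate 2, which passed the lowest wild type, the groups were separate.

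Cep97, the partner of Ccp110 in the cap on the distal end of centrioles, had 39.7 to 46.4 CPM (median 42.7) in Rfx2 knockouts, against 43.1 to 82.3 CPM (median 54.1) in wild types (log2 difference -0.42, SE 0.12, adjusted p = 0.0186). Rfx3 knockouts had 31.3 to 53.4 CPM (median 36.5), against 59.96 to 70.4 CPM (median 61.5) in wild types, without overlap (log2 difference -0.64, SE 0.13, adjusted p = 0.00696). Cep120, which centrioles need to duplicate and elongate, had 68.1 to 76.4 CPM (median 70.4) in Rfx2 knockouts, against 68.6 to 111.6 CPM (median 83.2) in wild types (log2 difference -0.28, SE 0.091, adjusted p = 0.0295). The knockouts stood at the low end of the wild-type range. Rfx3 knockouts had 57.5 to 90.7 CPM (median 60.3), against 88.8 to 106.5 CPM (median 95.6) in wild types (log2 difference -0.49, SE 0.12, adjusted p = 0.0143), and only knockout replicate 1 reached a wild type. Cep295, which lets a new centriole become a centrosome, had 59.2 to 71.1 CPM (median 66.2) in Rfx2 knockouts, against 56.3 to 117 CPM (median 81.6) in wild types (log2 difference -0.37, SE 0.13, adjusted p = 0.0396), and 29.4 to 75.6 CPM (median 49.5) in Rfx3 knockouts, against 67.01 to 89.5 CPM (median 80.8) in wild types (log2 difference -0.57, SE 0.19, adjusted p = 0.0439). Its lowest value was in Rfx3 knockout replicate 3, and without that library the log2 difference in the Rfx3 line was -0.45 (adjusted p = 0.0251). The exons of Cep295 overlap those of Taf1d on the other strand, and with strandedness not given their reads cannot be told apart.

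Cep85, which acts at the centrosome in the control of duplication, showed the smallest decrease of the group in the Rfx2 line, at 20.5 to 25.03 CPM (median 22.8) in knockouts against 23.2 to 31.1 CPM (median 25.4) in wild types (log2 difference -0.22, SE 0.074, adjusted p = 0.0358). Its level was 20.3 to 27.9 CPM (median 23.5) in Rfx3 knockouts, against 25.3 to 30.8 CPM (median 29.3) in wild types (log2 difference -0.27, SE 0.089, adjusted p = 0.0458). Cep44, a protein of the centriole lumen, had 19.4 to 22 CPM (median 20.7) in Rfx2 knockouts, against 21.2 to 28.99 CPM (median 24.3) in wild types (log2 difference -0.26, SE 0.072, adjusted p = 0.0128). Cep44 was not called in the Rfx3 line (log2 difference -0.29, SE 0.11, adjusted p = 0.0682), and knockout replicate 3 held its highest value, at 30.2 CPM against 19.4 to 24.7 CPM in the other 5 knockouts. Without that library it was called lower (log2 difference -0.38, adjusted p = 0.00561). The calls of Cep120, Cep295 and Cep85 in the Rfx2 line were near the threshold. Leaving out any of 7 of the 14 libraries (knockouts 1, 2, 3, 5 and 6, wild types 4 and 6) brought the adjusted p of Cep120 to between 0.0541 and 0.0674. For Cep295, 12 of 14 libraries did so (all but wild types 1 and 5), with 0.0549 to 0.0898, and for Cep85, 9 of 14 (knockouts 3 to 6, wild types 3, 4, 6, 7 and 8), with 0.0527 to 0.0943. For the Rfx3 line, 8 of 12 libraries each ended the calls of Cep295 and Cep85 when left out (knockouts 4 to 6 and wild types 1 to 5), with adjusted p values of 0.0715 to 0.094 and 0.0628 to 0.102. Same-numbered samples of the Rfx2 line varied together, though they are not known to be pairs. With the replicate number as a block, Cep295 and Cep85 had adjusted p values of 0.0525 and 0.0923 in that line.

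Among 4 genes of the mother centriole, Cep128 and Cep78 fell, Cep170 rose and Cep170b was not called in the Rfx2 line. Of all genes tested in that line, 18.4% were called lower and 13.9% higher. Cep128 (ENSMUSG00000061533, chr12:90998492-91384409, minus strand), a protein of the subdistal appendages, had 40.4, 46.2, 44.5, 41.6, 36.1 and 37.4 CPM in the 6 Rfx2 knockouts, against 64.1, 103.8, 161.1, 128, 59.3, 99.4, 93.8 and 101.3 CPM in the 8 wild types (log2 difference -1.33, SE 0.20, adjusted p = 0.000269). Every knockout lay below every wild type, and the wild types spread over a wider range than the knockouts. The 6 Rfx3 knockouts had 129.6, 119, 60.7, 56.4, 53.1 and 45.6 CPM, against 156.5, 163.5, 194.5, 161, 185.5 and 146.9 CPM in the 6 wild types (log2 difference -1.13, SE 0.25, adjusted p = 0.00852). Again no knockout reached a wild type, but replicates 1 and 2 lay much nearer to the wild types than replicates 3 to 6. In the Rfx1 line the groups overlapped, with 128.3, 133.3, 166.6 and 111 CPM in knockouts and 120.3, 134.7, 146.7 and 161.1 CPM in wild types (log2 difference -0.064, SE 0.13, adjusted p = 1).

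Cep78, a centriole wall protein with a role in ciliogenesis, had 13.6 to 14.3 CPM (median 13.9) in Rfx2 knockouts, against 15.1 to 21.9 CPM (median 16.8) in wild types, without overlap (log2 difference -0.35, SE 0.084, adjusted p = 0.00544). Rfx3 knockouts had 13.1 to 21.6 CPM (median 16.1), against 19.2 to 23.95 CPM (median 21.2) in wild types, and Cep78 was not called there (log2 difference -0.36, SE 0.14, adjusted p = 0.0698), with knockouts 1 and 2 inside the wild-type range. Of 20 alternative settings, 5 called Cep78 lower in the Rfx3 line, among them DESeq2 and limma-voom (adjusted p = 0.0447 and 0.0427). Cep170, another subdistal appendage protein, went the other way in the Rfx2 line, at 143.1 to 161.2 CPM (median 155.6) in knockouts against 119.1 to 145.3 CPM (median 129.5) in wild types (log2 difference 0.21, SE 0.048, adjusted p = 0.00476). No call was made for Cep170 in the Rfx3 line (log2 difference -0.084, SE 0.14, adjusted p = 0.703), and replicate 3 held the lowest knockout value by far, at 57.7 CPM against 100.8 to 118.7 CPM in the other 5 knockouts. Without that library the log2 difference of Cep170 was 0.037, and that of Cep170b, its paralogue, was -0.13. With all libraries Cep170b had log2 differences of -0.13 in the Rfx2 line (adjusted p = 0.0876) and -0.23 in the Rfx3 line (adjusted p = 0.163). The Cep170b call appeared in the Rfx2 line without wild-type replicate 1 (adjusted p = 0.0105).

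**Figure D3:**
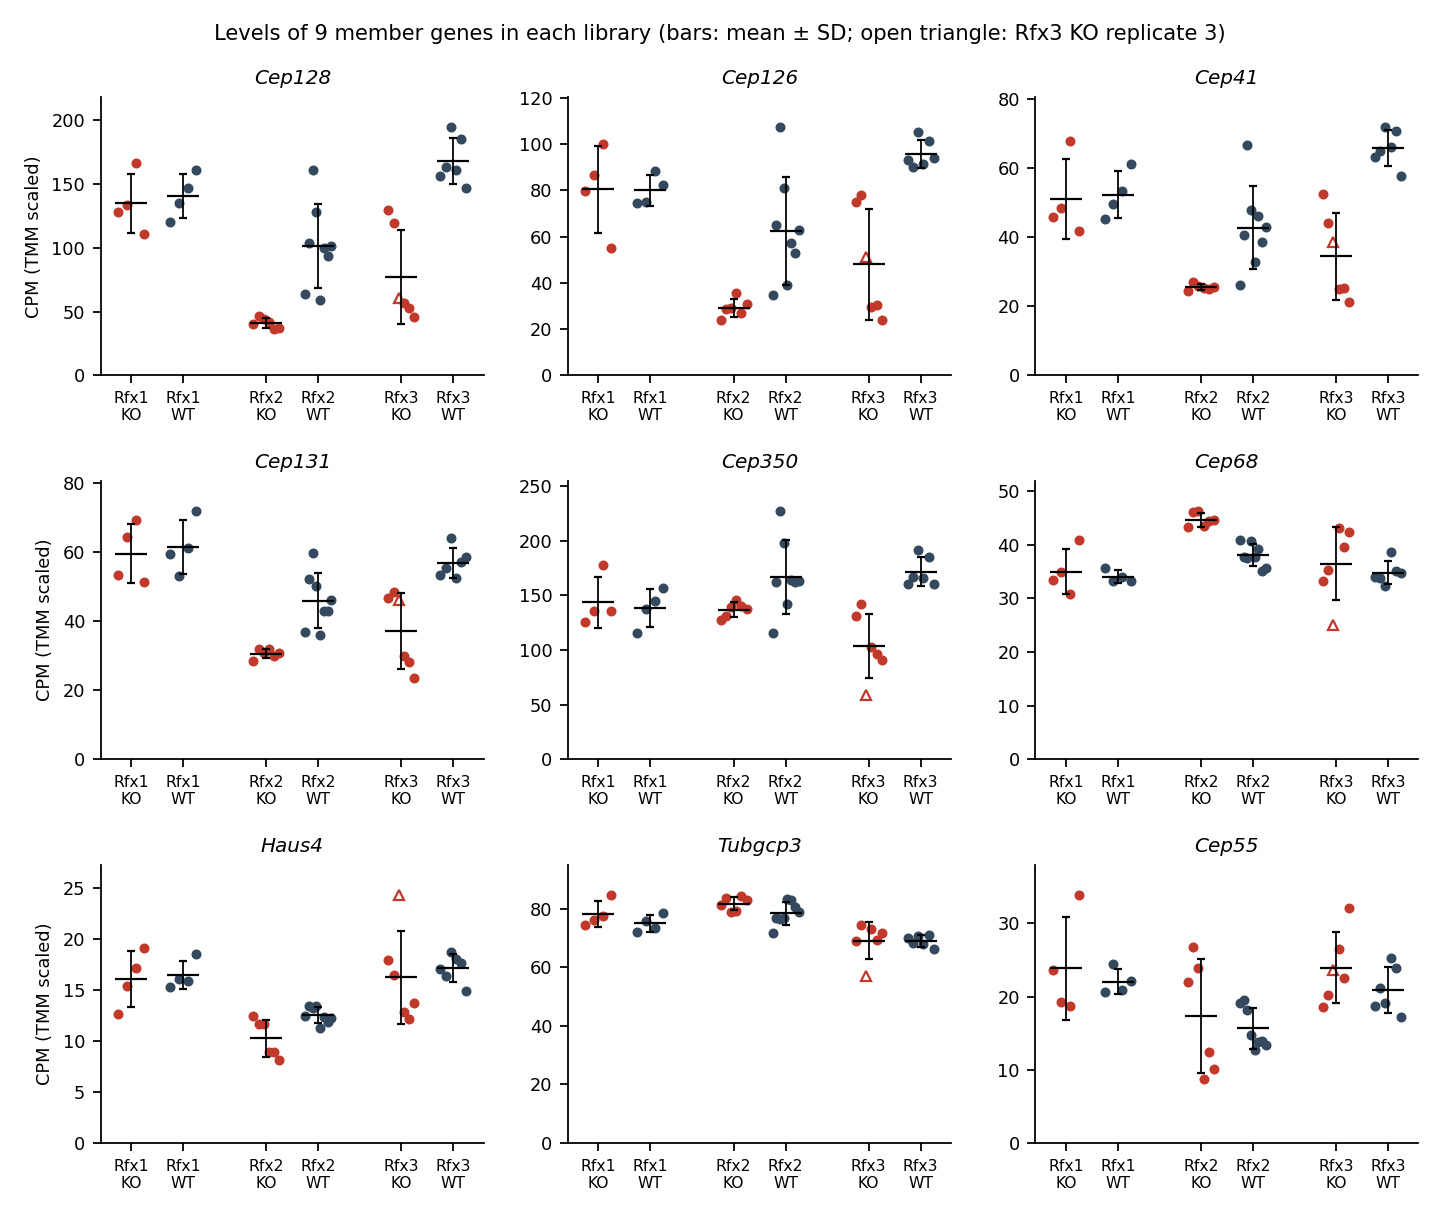
CPM of 9 centrosomal genes in each library, with knockouts in red left of wild types in dark blue for each line, and bars for the mean ± SD. For Cep128, Cep126, Cep41 and Cep131 the Rfx2 knockouts form a tight low group. The Rfx3 knockouts spread more widely in these genes, with replicates 1 and 2 nearest to the wild types and replicates 4 to 6 lowest. The open triangle is Rfx3 knockout replicate 3.

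Genes of the ciliary base, axoneme and satellites were lower in 5 of 7 cases in the Rfx2 line and 4 of 7 in the Rfx3 line, against 18.4% and 12.9% of all genes. Cep126 (ENSMUSG00000040729, chr9:8076461-8134294, minus strand), which organises microtubules and satellites around the centrosome, had 23.8 to 35.7 CPM (median 28.9) in Rfx2 knockouts, against 34.8 to 107.3 CPM (median 60.03) in wild types (log2 difference -1.12, SE 0.22, adjusted p = 0.0016). Wild-type replicate 1, at 34.8 CPM, lay below the highest knockout, at 35.7 CPM. In Rfx3 knockouts the values were 75.1, 77.8, 51.1, 29.5, 30.6 and 23.9 CPM, against 89.96 to 105.1 CPM (median 93.4) in wild types (log2 difference -1.01, SE 0.27, adjusted p = 0.0186). Replicates 1 and 2 stood a little below the wild types and replicates 4 to 6 far below.

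Cep41 (ENSMUSG00000029790, chr6:30653457-30693749, minus strand), needed for the glutamylation of ciliary tubulin and mutated in Joubert syndrome, had 24.4 to 26.95 CPM (median 25.5) in Rfx2 knockouts, against 26.1 to 66.7 CPM (median 41.9) in wild types (log2 difference -0.77, SE 0.16, adjusted p = 0.00245). The 6 knockouts lay close together, and only wild-type replicate 1 reached them. In Rfx3 knockouts it had 52.6, 44.2, 38.6, 25.1, 25.2 and 21.3 CPM, against 57.8 to 71.8 CPM (median 65.6) in wild types, without overlap (log2 difference -0.94, SE 0.20, adjusted p = 0.00696). Cep131 (chr11:120064430-120086827, minus strand), a satellite protein, had 28.5 to 32.1 CPM (median 30.8) in Rfx2 knockouts, against 36.1 to 59.7 CPM (median 44.6) in wild types, without overlap (log2 difference -0.61, SE 0.11, adjusted p = 0.000742). The Rfx3 knockouts had 23.6 to 48.3 CPM (median 38.1), against 52.6 to 64.2 CPM (median 56.3) in wild types, again without overlap (log2 difference -0.62, SE 0.17, adjusted p = 0.0193).

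Cep19, which brings the small GTPase Rabl2 to the ciliary base, had 35.9 to 43.4 CPM (median 41.5) in Rfx2 knockouts, against 43.3 to 57.01 CPM (median 49.5) in wild types (log2 difference -0.31, SE 0.064, adjusted p = 0.0021). Cep19 was not called in the Rfx3 line (log2 difference -0.21, SE 0.12, adjusted p = 0.229). There knockout replicate 3 had 71.5 CPM, above every wild type, and without it Cep19 was called lower (log2 difference -0.32, adjusted p = 0.0167). The satellite gene Cep72 and Cep162, which links the axoneme to the transition zone, were called in neither line, with log2 differences of -0.22 and -0.056 in the Rfx2 line and -0.29 and -0.29 in the Rfx3 line. Cep162 had 27.96 CPM in Rfx3 knockout replicate 3 and 51.98 to 57.6 CPM in the other 5, against 59.2 to 63.5 CPM in wild types, so every knockout lay below every wild type. Without replicate 3 it was called lower (log2 difference -0.17, adjusted p = 0.00524).

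Of 5 genes of the pericentriolar scaffold and the linker between centrioles, 1 was called higher in the Rfx2 line (Cep68) and 1 lower in the Rfx3 line (Cep350). These counts stand against 13.9% of all genes called higher in the Rfx2 line and 12.9% called lower in the Rfx3 line, and are near those shares. Cep68, a linker protein, had 43.3 to 46.3 CPM (median 44.4) in Rfx2 knockouts, against 35.1 to 40.8 CPM (median 37.7) in wild types, without overlap (log2 difference 0.21, SE 0.037, adjusted p = 0.000794). Cep68 was not called in the Rfx3 line (log2 difference 0.064, SE 0.12, adjusted p = 0.734). Cep350 (ENSMUSG00000033671, chr1:155844964-155973255, minus strand), a large microtubule-binding protein of the mother centriole, had 130.8, 141.9, 59.2, 102.8, 96.6 and 90.5 CPM in Rfx3 knockouts, against 160.1 to 191.3 CPM (median 166.8) in wild types, without overlap (log2 difference -0.74, SE 0.17, adjusted p = 0.0097). With 16520 exonic bases it is among the longest members. Its lowest value was in replicate 3, and without that library the decrease was -0.61 on the log2 scale (adjusted p = 0.0031). In the Rfx2 line it had 127.2 to 145.7 CPM (median 138.5) in knockouts, against 115.3 to 227.5 CPM (median 163) in wild types, and was not called (log2 difference -0.31, SE 0.12, adjusted p = 0.06). Without wild-type replicate 1 or 5 it was (adjusted p = 0.00827 and 0.0479), as with DESeq2 (0.0398).

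The remaining scaffold genes were called in no line. Cep192, which recruits mitotic kinases to the centrosome, had log2 differences of -0.12 and -0.24 in the Rfx2 and Rfx3 lines. Cep57, a pericentriolar protein, had -0.076 and 0.026, and Cep250, the anchor of the linker, had 0.011 and -0.094. Cep250 shares exonic bases with 6430550D23Rik on the other strand. Cep192 and Cep250 were lowest in Rfx3 knockout replicate 3, at 29.2 CPM against 65.8 to 73.3 CPM, and 38.4 CPM against 57.9 to 72.3 CPM, in the other 5 knockouts. Without it the log2 differences of Cep192, Cep250 and Cep57 in the Rfx3 line were -0.090, 0.010 and -0.017, none called.

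Of the 5 gamma-tubulin ring genes, Tubgcp5 was the one called, higher in the Rfx2 line, where 13.9% of all genes were called higher. It had 41.01 to 44.96 CPM (median 42.4) in knockouts, against 34.1 to 38.5 CPM (median 37.3) in wild types, without overlap (log2 difference 0.19, SE 0.035, adjusted p = 0.00094). Tubgcp2 and Tubgcp3, the subunits of the small gamma-tubulin complex, had log2 differences of 0.025 and 0.039 in the Rfx2 line, with standard errors of 0.034 and 0.036, and -0.011 and -0.0054 in the Rfx3 line, with standard errors of 0.057 and 0.066. Tubgcp4 and Tubgcp6, which belong to the full ring, had -0.025 and 0.079 in the Rfx2 line and -0.18 and -0.043 in the Rfx3 line. The standard errors of Tubgcp4 and Tubgcp6 in the Rfx3 line were 0.21 each, and replicate 3 again held their lowest knockout values. Without that library their log2 differences were -0.017 and 0.12, those of Tubgcp2 and Tubgcp3 were 0.030 and 0.047, and none was called. Reads of Tubgcp2, Tubgcp4 and Tubgcp6 cannot be told apart from those of Zfp511, of Zscan29 and Trp53bp1, and of Selenoo, which share exonic bases with them on the other strand.

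Augmin genes were called in 2 of 8 cases in the Rfx2 line and 0 of 8 in the Rfx3 line. Over all genes tested, 18.4% were called lower and 13.9% higher in the Rfx2 line, and 12.9% and 10.6% in the Rfx3 line. Haus4 had 8.12 to 12.4 CPM (median 10.3) in Rfx2 knockouts, against 11.3 to 13.5 CPM (median 12.5) in wild types (log2 difference -0.31, SE 0.10, adjusted p = 0.0254). Knockout replicates 4 to 6 lay below every wild type at 8.12 to 8.95 CPM, while replicates 1 to 3 had 11.7 to 12.4 CPM, within the wild-type range. The call ended without any of knockouts 4, 5 and 6 (adjusted p 0.0607 to 0.0711). Haus8, which binds microtubules for the complex, was higher in Rfx2 knockouts, at 24.3 to 30.4 CPM (median 27.2) against 21.8 to 27.6 CPM (median 23.1) in wild types (log2 difference 0.18, SE 0.057, adjusted p = 0.0218), a call that ended without knockout replicate 4 (adjusted p = 0.0577). It shares exonic bases with Myo9b on the other strand. The other 6 augmin genes had log2 differences of -0.14 (Haus1), -0.067 (Haus2), -0.13 (Haus3), 0.19 (Haus5), -0.074 (Haus6) and 0.12 (Haus7) in the Rfx2 line, none called. Haus5 passed without knockout replicate 4 (adjusted p = 0.0453) or wild-type replicate 2 (0.043).

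In the Rfx3 line the augmin genes ran between -0.090 for Haus4 and 0.28 for Haus8 on the log2 scale. Haus1, Haus2 and Haus3 had -0.0042, 0.037 and 0.039, and Haus5, Haus6 and Haus7 had 0.068, -0.065 and 0.24. Haus4, Haus7 and Haus8 were highest in knockout replicate 3, at 24.4, 24.7 and 41.0 CPM, against 12.2 to 17.95, 14.4 to 18.8 and 24.4 to 29.2 CPM in the other 5 knockouts. Without that library Haus1 and Haus4 had log2 differences of -0.16 and -0.23, and Haus7 and Haus8 had 0.14 and 0.16, none called. Haus1, Haus2 and Haus3 share exonic bases with Atp5a1, Lrrc57 and Poln.

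Cep55, which recruits the abscission machinery to the midbody of dividing cells, was called in no line. In the Rfx2 line the knockouts had 22.02, 26.8, 23.9, 8.81, 12.5 and 10.1 CPM, against 19.1, 19.5, 18.2, 14.8, 12.7, 13.8, 13.9 and 13.4 CPM in wild types (log2 difference 0.13, SE 0.24, adjusted p = 0.7). The knockouts fell into replicates 1 to 3, above every wild type, and replicates 4 to 6, below every wild type. The summed level of 18 mitotic genes split in the same way, at 1289 to 1404 CPM in knockouts 1 to 3 and 538.3 to 682.4 CPM in knockouts 4 to 6, against 733.8 to 1145 CPM in wild types. Libraries 1 to 3 of the knockouts and 1 and 2 of the wild types also held 64.5 to 100.4 CPM of the oligodendrocyte precursor marker Pdgfra, which was at most 10.1 CPM in the other libraries of the line. The part of these differences between libraries in the Cep55 levels was not tested. Without replicates 1 to 3 of both groups the log2 difference of Cep55 was -0.41 (adjusted p = 0.0277). Leaving out the knockouts above every wild type fixed that direction in advance, so this p-value is no support for a decrease. In that setting 15 members in all, Cep55 among them, were called lower and 3 higher, against 15% and 12.5% of all genes. That setting ended the calls of Cep112, Cep120, Cep170, Cep19, Cep44 and Cep70, with adjusted p values of 0.0511 to 0.259, and added Cep72 (0.0146).

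Of the 5 members with other or less settled roles, 3 were called lower in the Rfx2 line and 1 in the Rfx3 line, against 18.4% and 12.9% of all genes. Cep95 (chr11:106789252-106819930, plus strand) had 18.99 to 22.7 CPM (median 21.7) in Rfx2 knockouts, against 24.6 to 49.2 CPM (median 32.6) in wild types, without overlap (log2 difference -0.67, SE 0.13, adjusted p = 0.00181). In Rfx3 knockouts it had 36.9, 36.8, 34.4, 20.2, 18.2 and 16.7 CPM, against 39.6 to 48.9 CPM (median 45.04) in wild types, without overlap (log2 difference -0.74, SE 0.20, adjusted p = 0.0196). Cep112, a coiled-coil centrosomal protein, had 16.9 to 21.4 CPM (median 19.7) in Rfx2 knockouts, against 17.7 to 29.2 CPM (median 23.9) in wild types (log2 difference -0.29, SE 0.10, adjusted p = 0.0311). Leaving out any of 6 libraries (knockouts 1 to 3, wild types 6 to 8) ended this call (adjusted p 0.0544 to 0.0792), as did the replicate block (adjusted p = 0.0582). Among Rfx3 knockouts it missed the threshold (log2 difference -0.36, SE 0.12, adjusted p = 0.0524) and passed without knockout 1, 2 or 3 or wild type 6 (adjusted p 0.0217 to 0.0492). Cep70, which binds gamma-tubulin, had 23.5 to 29.96 CPM (median 26.3) in Rfx2 knockouts, against 28.3 to 38.6 CPM (median 30.9) in wild types (log2 difference -0.26, SE 0.081, adjusted p = 0.0251), a call that ended without knockout 1, 2, 3 or 5 (adjusted p 0.0517 to 0.069). Its log2 difference in the Rfx3 line was -0.16. Cep85l, a paralogue of Cep85, had 0.10 and -0.12, and the rare Cep295nl, at 0.41 to 1.52 CPM in all libraries of these lines, had 0.19 and 0.28, none called. Cep85l shares exonic bases with Pln on the other strand.

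**Figure D4:**
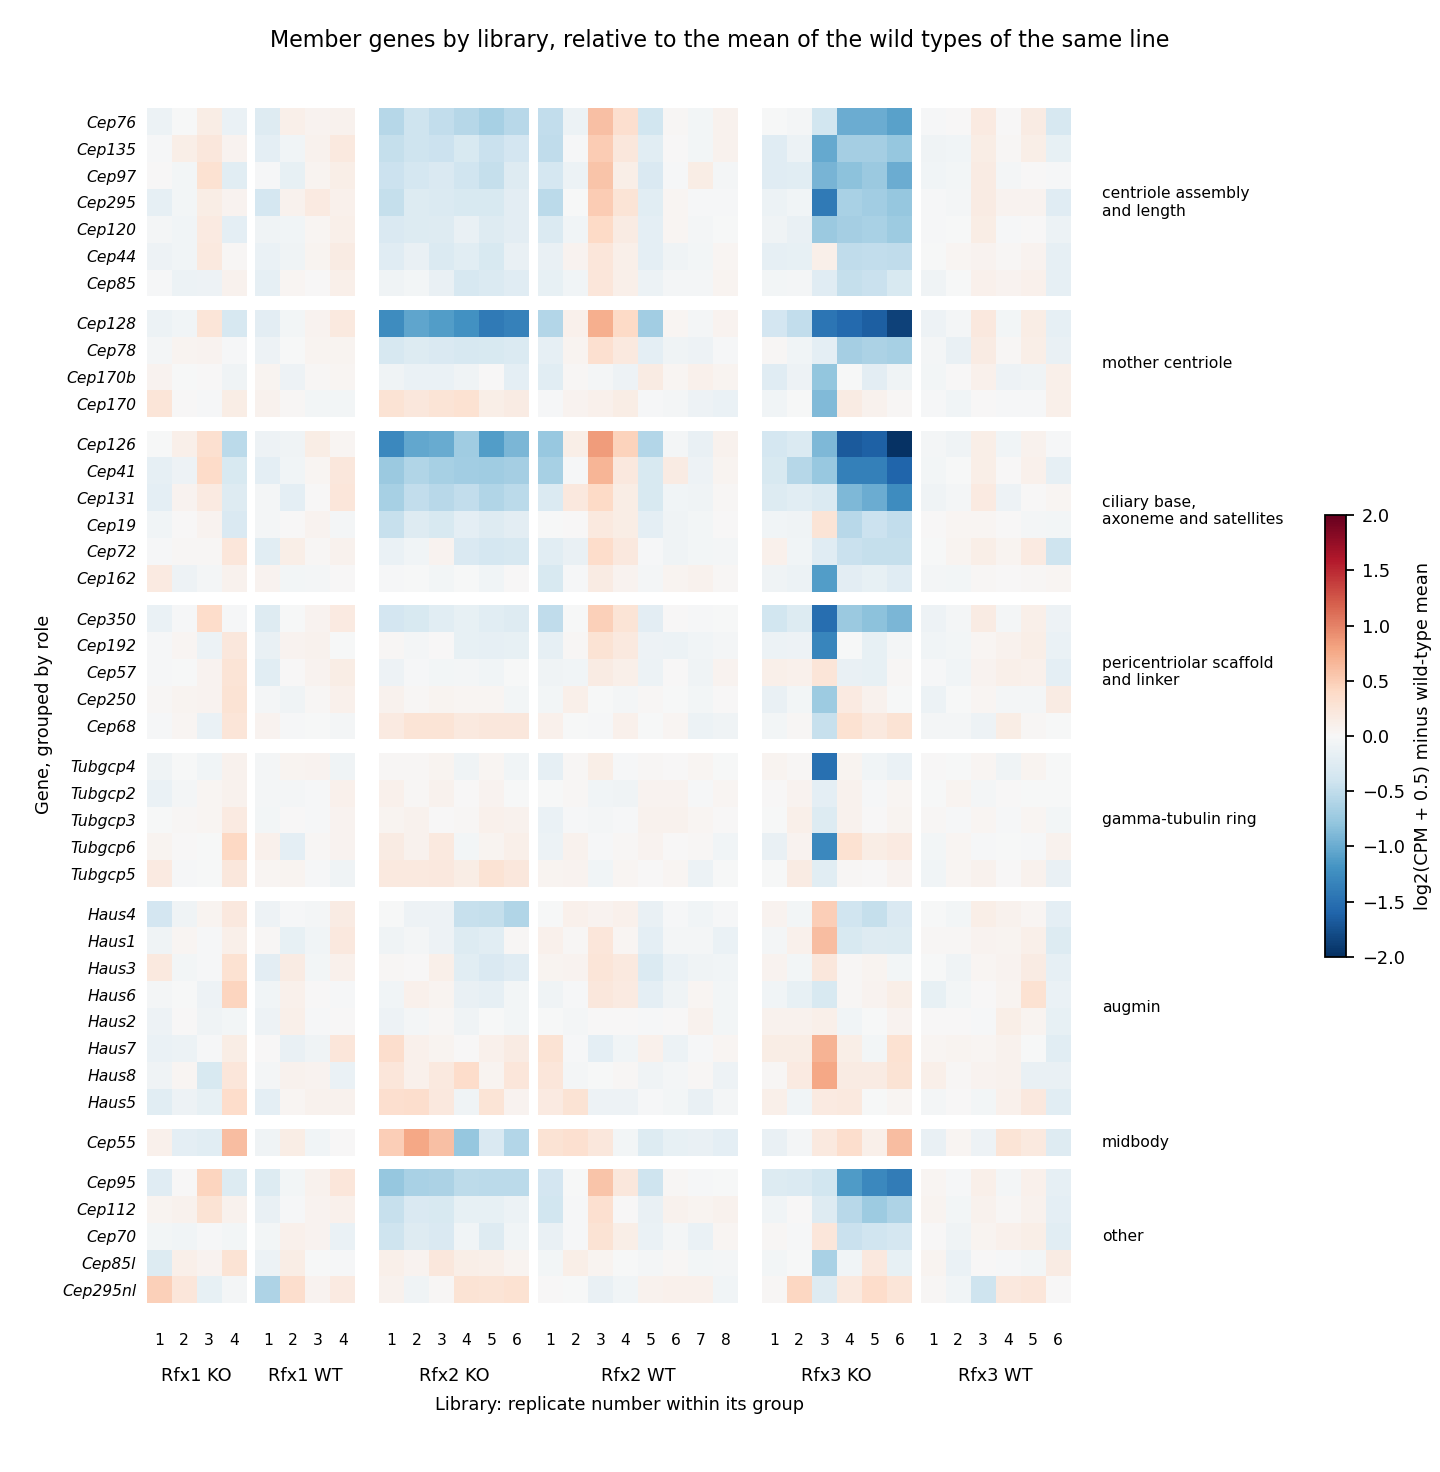
Log2(CPM + 0.5) of each of 41 genes in each of the 34 libraries minus the mean of the wild types of the same line, with knockouts left of wild types and genes grouped by role (blue lower, red higher). Cep55 and Haus4 differ between Rfx2 knockouts 1 to 3 and 4 to 6. Rfx3 knockouts 4 to 6 are lower than 1 and 2 for genes such as Cep128, Cep126 and Cep41, and higher for others such as Cep68 and Cep55. Rfx3 knockout replicate 3 has a pattern of its own. Rfx2 wild types 1, 3, 4 and 5 differ among themselves in the same genes that fell in the knockouts.

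The 18 members called lower in the Rfx2 line averaged -0.41 to -0.52 log2 relative to the wild-type mean in the 6 knockouts, with all 18 below that mean in each of them. Their average also spread among the wild types of that line, at 0.43 in replicate 3 and 0.19 in replicate 4, and -0.34 in replicate 1 and -0.27 in replicate 5, where again all 18 lay below the mean. Among the wild types of the Rfx1 and Rfx3 lines it ran between -0.14 and 0.11 and between -0.14 and 0.13. The ependymal marker sum followed the same order at its ends, with 3035 and 2312 CPM in wild types 3 and 4 and 1385 and 1541 CPM in wild types 1 and 5. Every knockout was below all of them, at 985.4 to 1311 CPM. The 12 members called lower in the Rfx3 line averaged -0.24 log2 in each of knockouts 1 and 2 and -0.90 in knockout 3, and ran between -1.10 and -0.92 in knockouts 4 to 6, against -0.11 to 0.15 in the wild types. The ependymal marker sums were 2643 and 2497 CPM in knockouts 1 and 2, 2424 CPM in knockout 3, and between 902.9 and 1111 CPM in knockouts 4 to 6. Both sets of members were picked by their calls in these same libraries, so their low averages in the knockouts restate the calls. Members and markers were measured in the same libraries, and whether the members changed beyond the markers was not tested.

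The Rfx2 and Rfx3 lines, which share no samples, had overlapping sets of lower members. Called lower in both were 11 members, among them Cep128, Cep126, Cep41, Cep131, Cep135, Cep95 and Cep97, which is 61.1% of the 18 lower in the Rfx2 line and 91.7% of the 12 lower in the Rfx3 line. Over the 14086 genes tested in both lines, 1216 were lower in both, or 46.3% of those lower in the Rfx2 line and 66.8% of those lower in the Rfx3 line. Whether the overlap was larger among the members was not tested. Across the 42 members the 2 log2 differences had a Pearson r of 0.91 and a Spearman rho of 0.87, against 0.657 and 0.575 across all genes tested in both, as a description of genes that share their libraries within each line. The 18 members called lower in the Rfx2 line were all below zero in the Rfx3 line, and the 12 called lower in the Rfx3 line were all below zero in the Rfx2 line, against 87.7% and 91.4% for all genes called in that way. A test of the difference between the effects of Rfx2 and Rfx3 loss called 0 of 42 members, against 1.74% and 2.1% of genes called in either direction. At an unadjusted p below 0.05, 3 members stood out in that test. The Rfx2 effect minus the Rfx3 effect was 0.20 (SE 0.075, adjusted p = 0.13) for Tubgcp5, 0.31 (SE 0.13, adjusted p = 0.206) for Cep170 and 0.44 (SE 0.20, adjusted p = 0.218) for Cep350. DESeq2 also called 0. The 7 members called lower in the Rfx2 line alone and Cep350, called lower in the Rfx3 line alone, are thus not shown to differ between the lines.

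**Figure D5:**
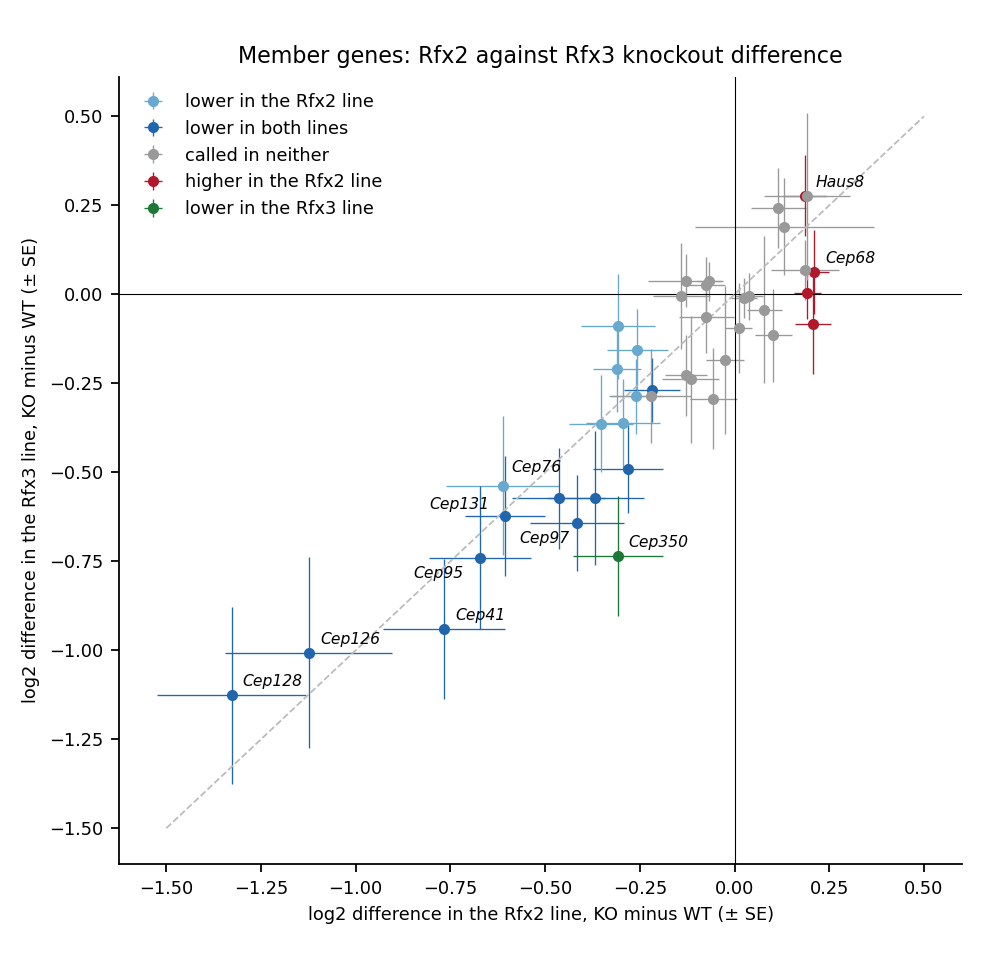
Log2 difference of 41 members in the Rfx3 line against that in the Rfx2 line, each with its standard error, coloured by the calls, with the dashed line marking equality. Cep128, Cep126 and Cep41 lie at the low end in both lines, Cep350 lies below the line of equality, and the genes called in neither line gather around zero.

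In the Rfx1 line edgeR called 0 members lower and 0 higher, and 0 had an unadjusted p below 0.05. DESeq2 and limma-voom also called 0. Log2 differences ran between -0.073 and 0.14, with standard errors of 0.055 to 0.36. The smallest p values belonged to Cep112, Cep250 and Cep170. Cep112 had 27.2, 27.5, 31.9 and 27.8 CPM in Rfx1 knockouts, against 23.5, 25.5, 27.3 and 28.1 CPM in wild types, with a log2 difference of 0.13 (SE 0.081), and the groups overlapped. Cep250 and Cep170 had 0.11 and 0.10. With 4 samples a group the line is smaller than the others, and a missed threshold does not show that levels were the same.

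Tested against each other, the effects of Rfx1 and Rfx3 loss differed for 5 members, against 4.79% of genes called in that direction and 0 members and 2.95% of genes in the other. The Rfx1 effect minus the Rfx3 effect was 1.06 (SE 0.34, adjusted p = 0.0492) for Cep128, 0.89 (SE 0.28, adjusted p = 0.0488) for Cep41, 0.78 (SE 0.23, adjusted p = 0.032) for Cep350, 0.66 (SE 0.20, adjusted p = 0.04) for Cep135 and 0.65 (SE 0.20, adjusted p = 0.0456) for Cep97, with Rfx3 knockouts below their wild types and Rfx1 knockouts near theirs. This count rested on single libraries. It was 0 without Rfx1 knockout 3, Rfx1 wild type 1 or 2, Rfx3 knockout 5 or 6, or Rfx3 wild type 3, and 1 or 2 without Rfx1 knockout 1 or 2, Rfx1 wild type 3, Rfx3 knockout 4, or Rfx3 wild type 1, 2, 4, 5 or 6. It was 3 without Rfx3 knockout 3, and 12 and 11 without Rfx3 knockouts 1 and 2. Between Rfx1 and Rfx2 loss 0 members were called, against 0.236% of genes lower and 0.593% higher. The largest of those differences was 1.24 (SE 0.33, adjusted p = 0.0688) for Cep128, which DESeq2 called, and 1 member was called in edgeR without Rfx1 knockout 4 or Rfx2 wild type 1 or 5.

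Other centrosomal genes were followed in 4 lists of 51 genes with no Cep, Haus or Tubgcp names. Of 19 other centriole assembly genes, 13 were lower in the Rfx2 line and 8 in the Rfx3 line, with median log2 differences of -0.38 and -0.43. Poc5, a protein of the centriole lumen, had 43.2 ± 1.61 CPM in Rfx2 knockouts and 72.8 ± 18.4 CPM in wild types (n = 6 and 8, with SD), with a log2 difference of -0.77, SE 0.15, adjusted p = 0.00122, and Tedc2, a partner of delta- and epsilon-tubulin, had 8.8 ± 0.41 and 12.98 ± 1.48 CPM (log2 difference -0.58, SE 0.080, adjusted p = 0.00017). In Rfx3 knockouts Ccp110, the partner of Cep97, had 68.1 ± 15.04 CPM, against 101.8 ± 5.39 CPM in wild types (SD, n = 6 each), with a log2 difference of -0.59, SE 0.12, adjusted p = 0.00657, and Cenpj, which sets centriole length, had a log2 difference of -0.43 (adjusted p = 0.0106). Of 12 other satellite genes, 9 were lower in the Rfx2 line and 7 in the Rfx3 line, with medians of -0.27 and -0.39. Ccdc14 (-0.67, adjusted p = 0.00201) and Cspp1 (-0.47, adjusted p = 0.00231) had the smallest p values in the Rfx2 line, and Cspp1 (-0.66, adjusted p = 0.00128) and Ccdc66 (-0.43, adjusted p = 0.00699) in the Rfx3 line.

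Linker and subdistal appendage genes were lower in 4 of 6 tested cases in the Rfx2 line and 3 of 7 in the Rfx3 line, with medians of -0.49 and -0.48. Crocc, which forms the ciliary rootlet, had 57.04 ± 14.9 CPM in Rfx3 knockouts and 124.4 ± 22.2 CPM in wild types (SD, n = 6 each), with a log2 difference of -1.13, SE 0.17, adjusted p = 0.0016, and its log2 difference in the Rfx2 line was -0.72 (adjusted p = 0.000857). Lrrc45, a linker protein, had -0.60 in the Rfx2 line (adjusted p = 0.000285), and Odf2, of the subdistal appendages, had -0.48 in the Rfx3 line (adjusted p = 0.00624). Of 13 gamma-tubulin and other pericentriolar genes, 4 were lower and 1 higher in the Rfx2 line, and 5 were lower in the Rfx3 line, with medians of -0.10 and -0.12. Pde4dip, an anchor for gamma-tubulin, was the gene that rose, with 102.9 ± 3.5 CPM in Rfx2 knockouts and 82.9 ± 5.92 CPM in wild types (SD, n = 6 knockouts and 8 wild types), with a log2 difference of 0.29, SE 0.040, adjusted p = 0.00016, and the rare gamma-tubulin gene Tubg2 had -0.82 (adjusted p = 0.000679). In the Rfx3 line Nin, a subdistal appendage protein, had -0.89 (adjusted p = 0.0038) and Ckap5, a microtubule polymerase, -0.54 (adjusted p = 0.00693). In the Rfx1 line 0 genes of the 4 lists were called. Without Rfx3 knockout replicate 3, the Rfx3 line had 14 of 19, 9 of 12, 5 of 7 and 5 of 13 genes of the 4 lists lower, and 10 of 14 ependymal markers. The counts without that library stand against 19.7% lower and 18.7% higher over all genes, the others against 18.4% and 13.9% in the Rfx2 line and 12.9% and 10.6% in the Rfx3 line, and the lists were chosen with results of these data known.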

How the data were processed

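RNA of 34 samples of cultured mouse ependymal cells was analysed from the raw read counts per gene deposited by the authors. Per the submitters' processing notes, CASAVA 1.8.2, STAR 2.4 and featureCounts 1.4.6 were used with the mouse genome GRCm38, and per the labels' protocols total RNA was purified with RNeasy columns and made into TruSeq libraries. Neither strandedness nor the annotation used for counting is given in the sources used here. Gene symbols, positions and exonic lengths came from GENCODE M21, which matched 21583 of 21647 gene IDs. No other column of per-sample values was present. The members and gene lists were chosen with earlier results of these data known.

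Each knockout group was compared with its wild-type siblings by edgeR 4.0.16 (R 4.3.3), with TMM scaling, filterByExpr (minimum count 10, minimum total 15), the quasi-likelihood F test, two-sided, and Benjamini-Hochberg adjustment over all 13830, 14305 and 14340 genes tested in the Rfx1, Rfx2 and Rfx3 lines. Genes with an adjusted p below 0.05 were called. Differences between knockout effects, and between the wild-type groups, were tested in a fit of all 6 groups (14833 genes). The standard error of a log2 difference was derived from its F statistic. CPM were scaled by TMM over all libraries. Values were given for every called member but 1, which is counted in the totals and not reported here, for all Haus and Tubgcp genes, for the 3 uncalled members with the smallest p in each line, and for the 2 called genes with the smallest p in each list of other centrosomal genes. Promoter windows came from RefSeq.

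Replicate pairs were compared by chi-square over genes (85 pairs), and chi-square per degree of freedom was at least 4.11, so all libraries were kept as separate samples. Same-numbered knockouts and wild types of the Rfx2 line deviated together, with correlations of 0.14 to 0.58 in all 6 pairs although only 3 of 6 knockouts correlated best with their own number. These correlations do not settle whether the samples are pairs. The main test did not pair them, and the number served as a block in an alternative only. Alternatives were DESeq2 1.42.0, limma-voom (limma 3.58.1), RLE and upper-quartile scaling, no filter, a replicate block, removal of the length trend, a fit of all groups, and leaving out libraries. The edgeR tests were checked on simulated data, in which 41 of 73, 72 of 81 and 49 of 81 genes changed 1.5-fold were recovered in the Rfx1, Rfx2 and Rfx3 lines, and 54 of 61, 49 of 51 and 52 of 59 genes changed 2-fold. Far fewer genes were changed in the simulation than were called in the Rfx2 and Rfx3 lines, so its rates do not carry over to those lines.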

Additional observations from a re-analysis of the deposited data

Results flagged for a closer look

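In each of 252 groups of values (42 genes in 6 groups) the most extreme library was compared with the rest by Dixon's test, which chance alone would exceed in about 1 of 20 groups. It did so in 26 groups (10.3%), spread over 11 libraries, and 9 of the 26 belonged to Rfx3 knockout replicate 3.

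In that library, against the range of the other 5 knockouts, Cep162 had 27.96 CPM (51.98 to 57.6), Cep170 57.73 (100.8 to 118.7), Cep170b 52.2 (76.12 to 89.66) and Cep192 29.22 (65.8 to 73.34). Tubgcp2 had 40.79 CPM there (46.38 to 49.62), Tubgcp3 57.03 (68.95 to 74.55) and Tubgcp4 11.57 (30.62 to 35.01). Haus1 and Haus8 lay above the others, at 29.73 CPM (15.29 to 20.44) and 41.02 CPM (24.38 to 29.18).

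Rfx1 knockout replicate 4 was high for Cep250 (82.34 CPM, others 68.27 to 70.38), Haus5 (22.35, others 14.76 to 16.04), Haus6 (38.18, others 26.17 to 27.7) and Tubgcp6 (34.78, others 26.03 to 27.15), and replicate 3 was high for Cep112 (31.91, others 27.15 to 27.79). Among Rfx1 wild types, replicate 1 was low for Cep76 (33.47 CPM, others 42.35 to 43.56) and Haus5 (14.98, others 17.8 to 18.33), and replicate 4 was high for Tubgcp2 (63.0, others 56.66 to 57.48).

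Among Rfx2 wild types, replicate 2 was high for Cep250 (87.34 CPM, others 77.14 to 81.08), replicate 3 for Cep97 (82.25, others 43.11 to 61.45), replicate 7 for Haus2 (58.43, others 52.48 to 55.26) and replicate 1 for Haus8 (27.58, others 21.8 to 23.66). Among Rfx3 wild types, replicate 6 was low for Cep44 (24.48 CPM, others 27.5 to 29.16), Cep72 (8.3, others 11.21 to 12.82), Haus1 (15.7, others 19.37 to 20.85) and Haus7 (12.78, others 15.03 to 16.06), and replicate 3 was high for Cep97 (70.39, others 59.96 to 63.51).

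The effects of Rfx1 and Rfx3 loss differed by the test of the difference for Cep128 (1.0553 on the log2 scale), Cep135 (0.6638), Cep350 (0.781), Cep41 (0.8932) and Cep97 (0.6518), each as the Rfx1 effect minus the Rfx3 effect.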

How the results depend on the processing

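The calls of 10 lower members and 2 higher members (Cep68 and Tubgcp5) in the Rfx2 line, and of 9 lower members in the Rfx3 line, held under every alternative run, and 7 of the lower ones (Cep126, Cep128, Cep131, Cep135, Cep41, Cep95 and Cep97) did so in both lines. The number called lower ran between 13 and 20 with a library left out and 12 and 20 otherwise in the Rfx2 line (18 as reported), and between 9 and 16 and between 10 and 18 in the Rfx3 line (12 as reported). The number called higher in the Rfx2 line, 4 as reported, was 4 or 5 with a library left out and 2 in the fit of all 6 groups. In the Rfx3 line, 0 as reported, it was 2 in the fit of all 6 groups (Haus7 and Haus8, adjusted p = 0.0456 and 0.0207). In the Rfx1 line it was 0 either way throughout. The 5 members whose Rfx1 and Rfx3 effects differed became 1 with no filter, 3 with the length trend removed and 0 to 12 with a library left out, and the 0 members whose Rfx1 and Rfx2 effects differed became 1 with DESeq2 and 0 to 1 with a library left out. The count of members that differed between wild-type groups ran between 19 and 24. Cep55 in the Rfx2 line, uncalled, turned to -0.032 with the replicate block, to -0.41 without replicates 1 to 3 and ran between -0.025 and 0.27 with a library left out. The causes of these changes were not tested. With the replicate block, 15 members were lower and 4 higher in the Rfx2 line, and beside the lost calls of Cep112, Cep295 and Cep85 it changed no other call there. Same-numbered samples of the Rfx1 line had correlations of -0.065 to 0.33, with 3 of 4 pairs over 0.1 and 2 of 4 knockouts best with their own number. These values do not settle whether the samples are pairs, and the block gave 0 calls. Those of the Rfx3 line had correlations of -0.33 to 0.20, with 1 of 6 over 0.1 and 1 of 6 best with its own, and the block gave 10 lower members. At the depth and spread of these libraries, simulated 1.25-fold changes were recovered in 6 of 66, 35 of 68 and 3 of 60 cases in the Rfx1, Rfx2 and Rfx3 lines. Changes of that size can thus be missed in the Rfx1 line. The simulation changed only genes above a set mean count, and far fewer genes than were called in the Rfx2 and Rfx3 lines. Its rates do not carry over to those lines, so how often such changes were missed there is not known.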
